A study of Mus musculus with 25 samples.

Results

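Pax3 and Pax9 are the 2 members of the Pax family of transcription factors that were expressed at more than trace levels in the E14.5 palate, and they were taken from the RNA-Seq table by gene symbol, as 2 of its 37406 genes. The mouse palatal shelf was sampled by laser capture microdissection (LCM), in which cells are cut from a tissue section under the microscope, and each sample was sequenced (RNA-Seq). All 25 libraries came from wild type CD1 embryos at E14.5, and no library was treated or mutant. The study places this stage shortly after the palatal shelves have fused at the midline. Anterior and posterior palate were each cut into medial and lateral compartments, and also into oral and nasal compartments, which are 2 ways of dividing the same shelf. The 8 compartments had 3 libraries each, with 4 for anterior nasal, giving 13 anterior and 12 posterior libraries. The study calls its replicates biological, but nothing used here says which embryo gave which library. Libraries of different compartments may therefore share an embryo, while the tests treated libraries as independent. The p-values can then be too small where a shared embryo falls within a group, and too large where it gave both groups.

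Pax proteins bind DNA through the paired domain, which the paired box encodes. Pax3, which also carries a homeodomain, works in neural crest, in melanocyte precursors and in muscle precursors. Pax9 has the paired domain without a homeodomain, is expressed in the mesenchyme of the palate and the teeth, and is needed for palate closure. In the palate, Pax9 acts in one network with Msx1, Osr2, Bmp4 and the Wnt inhibitors of the Dkk family, while Pax3 acts elsewhere in the embryo with Eya coactivators.

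The stretch of the paired boxes that matched best between the genes is shown, since a short read would most easily be confused there. The best ungapped match between the GENCODE M21 transcripts Pax3-202 and Pax9-203 covered 207 coding bases. It lies in exon 2 of 8 of Pax3 (GRCm38 chr1:78195254-78195460, minus strand) and in exon 3 of 5 of Pax9 (GRCm38 chr12:56696591-56696797, plus strand). Capitals mark the bases that differ between the genes, read 5′ to 3′ along each transcript:
Pax3: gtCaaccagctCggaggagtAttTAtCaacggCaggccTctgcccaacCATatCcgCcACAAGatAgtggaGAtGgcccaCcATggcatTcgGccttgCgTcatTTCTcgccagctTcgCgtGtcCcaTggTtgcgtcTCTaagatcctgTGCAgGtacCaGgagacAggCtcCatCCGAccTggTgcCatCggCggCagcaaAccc
Pax9: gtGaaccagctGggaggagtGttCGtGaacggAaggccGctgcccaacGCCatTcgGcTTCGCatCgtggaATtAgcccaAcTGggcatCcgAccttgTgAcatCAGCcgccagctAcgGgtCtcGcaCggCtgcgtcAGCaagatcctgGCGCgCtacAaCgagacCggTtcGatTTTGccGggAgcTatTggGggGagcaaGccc
The stretches matched at 144 of 207 bases (69.6%), and the longest run without a difference was 9 bases, against reads of 50 bases. Of the 50-base windows in the coding transcripts, 0.44% of 3864 for Pax3 and 0.861% of 4298 for Pax9 also occurred on the same strand of another gene's transcript. On the opposite strand the shares were 0.414% for Pax3 and 3.82% for Pax9, and 140 of the 164 Pax9 windows fell in Slc25a21. The counting is not stated to use strand, so reads of Pax9 and Slc25a21 there cannot be told apart. Slc25a21, named after its values were seen, was at 3.13 to 20.7 RPKM in the anterior libraries and at 3.08 to 37.5 RPKM in the posterior ones.

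The values are RPKM (reads per kilobase of gene, scaled to library size), and library sizes read back from the table came to about 1.64 to 6.56 M reads. These are the totals behind the values and not the sequencing depth. The study states a larger average number of reads per sample and removed duplicate and multiply aligned reads. In bulk tissue, fewer cells that express a gene and less RNA per cell cannot be told apart. The 8 palate mesenchyme markers were all expressed, with a summed level of 628 to 875 RPKM in anterior and 588 to 958 RPKM in posterior libraries. Of these, Col1a1 was higher and Prrx1 lower in posterior palate, and Osr2 is also in the Pax9 list. Replicate libraries of a compartment correlated across genes at r = 0.881 to 0.982 on a log2 scale.

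The other 7 Pax genes were close to 0. By mean, Pax1 was the highest of them, at 0.229 to 3.14 RPKM, and Pax6 followed at 0 to 2.51 RPKM. The highest single value was 4.07 RPKM, for Pax4. Pax2, Pax4, Pax5 and Pax8 were listed at 0 in 17 to 19 of the 25 libraries, and Pax7 in 9. None of the 7 reached the expression minimum of any comparison, so none was tested. Pax9 stood at the 98.3 percentile of the 22399 genes with any signal, with a mean of 87.9 RPKM. Pax3 stood at the 93.8 percentile in anterior palate and at the 62.4 percentile in posterior palate.

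Pax3 was expressed in all 25 libraries, at a high and even level in anterior palate and at a low and uneven level in posterior palate. In anterior medial palate its level was 47.6, 54.5 and 50.8 RPKM, and in anterior lateral palate 42.3, 33.2 and 45.4 RPKM. In anterior oral palate it was 50.8, 33.3 and 39.3 RPKM, and in anterior nasal palate 49.9, 23.4, 37.0 and 44.4 RPKM. Anterior medial values lay above all anterior lateral ones, the other pairs of anterior compartments overlapped, and the highest anterior mean was 1.32-fold the lowest. In posterior medial palate Pax3 was at 19.7, 16.6 and 12.4 RPKM, and in posterior nasal palate at 10.8, 13.4 and 10.1 RPKM. In posterior lateral palate it was at 4.01, 5.16 and 4.09 RPKM, and in posterior oral palate at 3.00, 2.26 and 3.12 RPKM. Posterior means spanned 5.82-fold, and the medial and nasal compartments stood above the lateral and oral ones in every library.

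By mean, Pax3 fell in the order anterior medial (51.0 ± 3.49 RPKM, SD, n = 3), anterior oral (41.1 ± 8.89), anterior lateral (40.3 ± 6.32), anterior nasal (38.7 ± 11.5, n = 4), posterior medial (16.3 ± 3.64), posterior nasal (11.4 ± 1.77), posterior lateral (4.42 ± 0.643) and posterior oral (2.79 ± 0.466). The first was 18.3-fold the last. Neighbours in this order overlapped except at 3 steps, namely anterior nasal to posterior medial, posterior nasal to posterior lateral, and posterior lateral to posterior oral. In the compartment with the least Pax3, each value rests on few reads: about 24 to 30 in posterior oral replicate 2, for a counting error of 18.3 to 20.5%. These read numbers are estimates from transcript lengths of 3078 to 3863 bases and cover counting error only.

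Pax9 was high everywhere. In anterior medial palate it was at 121, 81.3 and 105 RPKM, and in anterior lateral palate at 95.1, 70.0 and 77.4 RPKM. In anterior oral palate it was at 41.6, 77.6 and 59.7 RPKM, and in anterior nasal palate at 88.8, 99.7, 106 and 89.3 RPKM. The lowest library of all was thus an anterior oral one. In posterior medial palate Pax9 was at 96.6, 57.1 and 100.1 RPKM, and in posterior lateral palate at 79.4, 99.9 and 93.5 RPKM. In posterior oral palate it was at 95.8, 145 and 111 RPKM, and in posterior nasal palate at 65.3, 71.8 and 70.1 RPKM. The highest mean, in posterior oral palate (117 ± 25.1 RPKM, n = 3), was 1.97-fold the lowest, in anterior oral palate (59.6 ± 18.0 RPKM, n = 3), and each pair of neighbours in the order of means overlapped. The order between them was anterior medial (102 ± 19.8), anterior nasal (95.9 ± 8.36), posterior lateral (90.9 ± 10.5), posterior medial (84.6 ± 23.9), anterior lateral (80.8 ± 12.9) and posterior nasal (69.1 ± 3.39).

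**Figure D1:**
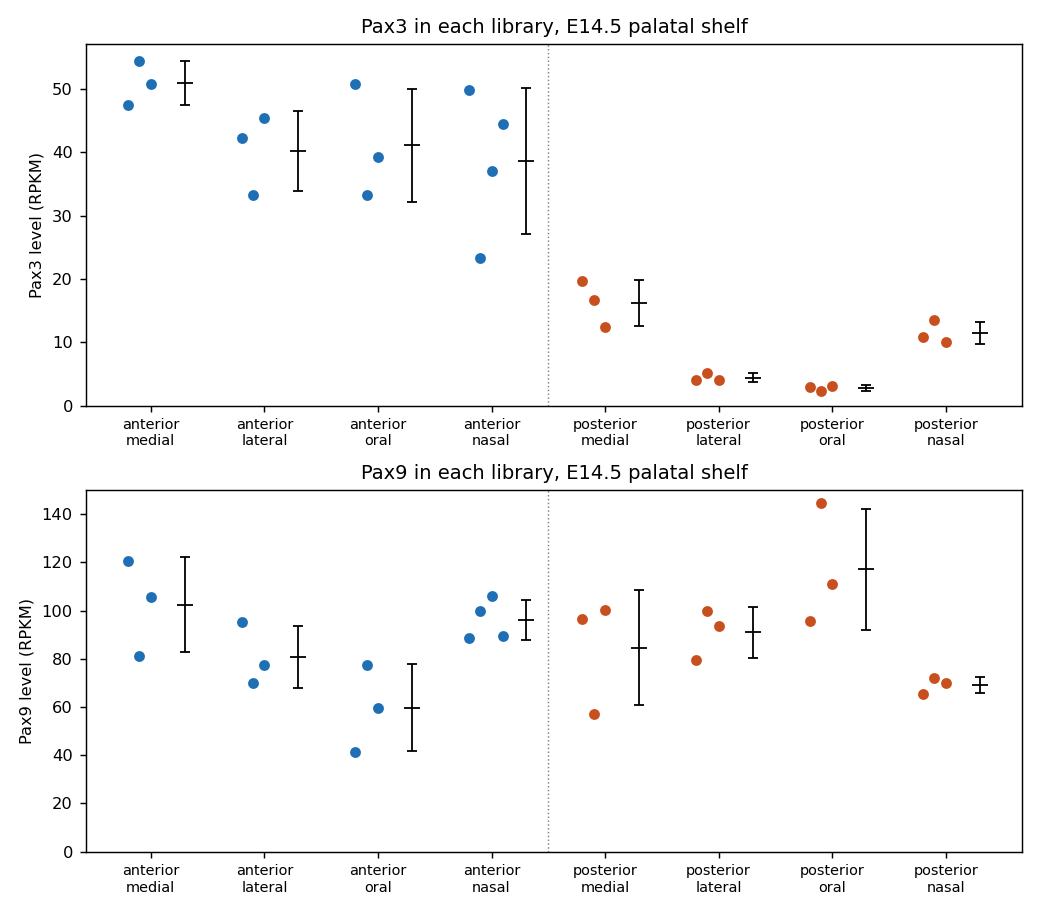
Level of Pax3 (top) and Pax9 (bottom) in RPKM in each of the 25 libraries, by compartment, with anterior libraries in blue and posterior in orange and with the mean and SD of each compartment beside the points. The 13 anterior Pax3 values lie between 23.4 and 54.5 RPKM, all above the 12 posterior values of 2.26 to 19.7 RPKM, while the Pax9 values of both regions overlap.

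The first comparison asked which genes differ along the anterior-posterior (AP) axis. Pax3 averaged 42.5 ± 8.91 RPKM in anterior (n = 13) and 8.73 ± 5.94 RPKM in posterior libraries (n = 12), and the groups did not overlap, which held for 0.267% of the 8608 genes tested. On the log2(RPKM + 0.1) scale it was 5.96-fold lower in posterior palate (95% interval of the log2 difference -3.18 to -1.96), rank 16 of all genes by limma, where 3.32% of genes had an adjusted p under 0.05. Pax9 averaged 85.6 ± 21.1 RPKM in anterior and 90.4 ± 23.8 RPKM in posterior libraries. Its groups overlapped, and its log2 difference of 0.083 (95% interval -0.23 to 0.40) did not pass the test (adjusted p = 0.861).

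Both regions were sequenced together in 3 of the 8 sequencing runs. Within them Pax3 was lower in posterior palate by log2 differences of -2.85 (2 posterior and 2 anterior libraries), -2.79 (5 and 3) and -2.91 (3 and 1). Pax9 differed by 0.12, -0.14 and 0.17 in the same runs. These runs do not hold the same compartments in both regions. Between the same compartment of both regions within a run, Pax3 differed by -3.67 in oral, -3.28 in lateral, -2.03 in nasal and -1.82 in medial palate, each from 1 to 3 libraries a side.

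The AP comparison was then made within each compartment, in one limma fit of all 25 libraries with 11913 genes tested. The largest difference for Pax3 was in the oral compartment, where it was 14.2-fold lower in posterior palate (log2 difference -3.82, SE 0.26, adjusted p = 4.89e-08). It ranked first of all genes there, with 0.512% of genes called. In the lateral compartment Pax3 was 8.92-fold lower (-3.16, adjusted p = 7.36e-07) and ranked second, with 0.865% of genes called. In the nasal compartment it was 3.26-fold lower (-1.70, adjusted p = 0.000730, 1.91% of genes called), and in the medial compartment 3.17-fold lower (-1.67, adjusted p = 0.000954, 1.66% called). Anterior and posterior Pax3 values did not overlap in any of the 4 compartments, which with so few libraries also held for 8.89%, 19.2%, 20.2% and 12.5% of genes in the oral, lateral, nasal and medial compartment. The medial call was lost when only the 6 medial libraries were fitted (adjusted p = 0.150), and the nasal call when the sequencing run was added (adjusted p = 0.150). Both kept their size, at -1.67 and -1.74.

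Pax9 did not pass the test in any compartment along this axis. In the oral compartment every posterior value (95.8 to 145 RPKM) was above every anterior value (41.6 to 77.6 RPKM), a 2.00-fold higher level (log2 difference 1.00, 95% interval 0.48 to 1.52, adjusted p = 0.103). In the nasal compartment the order was the opposite, and all 3 posterior values (65.3 to 71.8 RPKM) were below all 4 anterior values (88.8 to 106 RPKM), with a log2 difference of -0.47 (95% interval -0.96 to 0.01, adjusted p = 0.440). The lateral (0.17, -0.34 to 0.69) and medial (-0.30, -0.82 to 0.22) differences had overlapping groups. Without anterior oral replicate 2 the oral difference was 1.21 with an adjusted p of 0.0474, so that 1 library decided on which side of the threshold it stood. The median of all genes shifted by 0.11 in the oral and nasal comparisons and by -0.12 in the medial one, small beside the Pax3 differences.

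Oral and nasal compartments were compared within each region. In posterior palate Pax3 was 4.00-fold lower in oral (2.26 to 3.12 RPKM) than in nasal libraries (10.1 to 13.4 RPKM), without overlap (log2 difference -2.0, SE 0.23, adjusted p = 0.0111, rank 17). Here 1.25% of 10586 genes were called and 11.8% did not overlap. Pax3 reached the expression minimum of this comparison (5 RPKM in 3 libraries) only through the nasal libraries, so a gene as low as this in oral palate had to differ to be tested. Pax9 was 1.67-fold higher in posterior oral palate, again without overlap, but did not pass the test (log2 difference 0.74, 95% interval 0.23 to 1.25, adjusted p = 0.264). In anterior palate oral and nasal Pax3 values overlapped (log2 difference 0.12, 95% interval -0.61 to 0.85, adjusted p = 1.00). Anterior Pax9 was lower in all 3 oral than in all 4 nasal libraries (log2 difference -0.73, 95% interval -1.34 to -0.11, adjusted p = 1.00). No gene was called in that anterior comparison by limma, with 2.98% of 10684 genes at an unadjusted p under 0.05 and 3.67% without overlap. The posterior call of Pax3 was lost without the filter on low values (adjusted p = 0.0836).

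The difference between these differences was tested as an interaction. For Pax3 the oral-minus-nasal difference was more negative in posterior than in anterior palate by 2.12 on the log2 scale (SE 0.35, adjusted p = 0.0304, rank 3, with 0.0755% of 11913 genes called). For Pax9 it went the other way, with an interaction of 1.47 (95% interval 0.76 to 2.18) that did not pass the test (adjusted p = 0.164, rank 24). The Pax3 call is close to the threshold: leaving out 1 library gave adjusted p-values of 0.0142 to 0.0911, and 8 of the 13 such fits were above 0.05.

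Markers of bone-forming cells moved with the posterior oral and nasal difference. All 5 tested osteoblast markers (Runx2, Sp7, Ibsp, Alpl and Dlx5, of 6) were lower in posterior oral palate, with a summed level of 92.8 to 121 RPKM in oral and 418 to 621 RPKM in nasal libraries and no marker at 0 throughout. Among all genes tested 0.661% were lower and 0.586% higher in posterior oral palate. The 10 epithelium markers summed to 23.8 to 43.3 RPKM in posterior oral and 36.0 to 70.3 RPKM in posterior nasal libraries, and 1 of 4 tested (Krt18) was lower in oral. The 8 Schwann cell and glia markers summed to 35.6 to 46.6 RPKM in posterior oral and 12.5 to 19.8 RPKM in posterior nasal libraries, and the 1 tested was not called. The neuron marker Nefm and the cartilage marker Acan were also lower in oral, and the endothelium marker Emcn higher. The neuron markers summed to 12.8 to 22.9 RPKM in posterior oral and 35.6 to 53.7 RPKM in posterior nasal libraries. The cartilage sums overlapped, at 65.5 to 109 and 91.7 to 143 RPKM, and the endothelium sums were 118 to 179 and 52.3 to 79.3 RPKM. A marker under 5 RPKM in all libraries of one compartment was tested, as Pax3 was, only through the other, which fixed the direction of its difference. The part of these cells in the Pax3 and Pax9 levels was not tested.

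Lateral and medial compartments were compared in the same way. In posterior palate Pax3 was 3.58-fold lower in lateral (4.01 to 5.16 RPKM) than in medial libraries (12.4 to 19.7 RPKM), without overlap. With only these 6 libraries it ranked 7 of 10324 genes and was not called (log2 difference -1.84, 95% interval -2.55 to -1.13, adjusted p = 0.854). No gene was called in this comparison by limma, with 1.54% at an unadjusted p under 0.05 and 6.62% without overlap, and in one fit of all 25 libraries the same Pax3 difference had an adjusted p of 0.00107. With the sequencing run added to that fit the difference was -1.35 and was not called (adjusted p = 0.749). All 3 medial libraries and posterior lateral replicate 2 (5.16 RPKM) met the expression minimum for Pax3 here. In anterior palate lateral Pax3 was 1.27-fold below medial, without overlap but not called (log2 difference -0.35, adjusted p = 0.324, with 2.51% of 10427 genes called and 21.3% without overlap). Pax9 overlapped between lateral and medial libraries in both regions (-0.33, 95% interval -0.77 to 0.10, anterior, and 0.14, -0.64 to 0.92, posterior). The lateral-minus-medial difference of Pax3 differed between the regions by -1.49 (SE 0.36), which did not pass the test (adjusted p = 0.194, with 0.0923% of genes called), and that of Pax9 by 0.48 (SE 0.35, adjusted p = 0.990). Lateral and medial libraries of a region were never in the same sequencing run, so the run and these compartments cannot be told apart within a region, and with the run in the fit of all libraries the anterior Pax3 difference was 0.11.

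Markers of other cells also moved between lateral and medial palate. In posterior palate the epithelium markers summed to 21.3 to 37.4 RPKM in lateral and 59.3 to 136 RPKM in medial libraries, without overlap. Krt14, a keratin of basal epithelium, was at 2.43 ± 1.28 RPKM in posterior lateral and 34.7 ± 13 RPKM in posterior medial palate and was not called (rank 5, adjusted p = 0.450). In anterior palate Krt14, the bone factor Runx2 and the cartilage genes Sox9 and Acan were lower in lateral libraries, while Krt8 and the glial factor Sox10 were higher, each called. The epithelium markers there summed to 40.3 to 88.3 RPKM in lateral and 70.9 to 124 RPKM in medial libraries, with overlap. The cartilage markers summed to 20.7 to 21.6 and 67.6 to 109 RPKM. Runx2 does not stand for its list, since the anterior osteoblast sums overlapped, at 62.1 to 184 and 77.5 to 113 RPKM. Glia sums (35.7 to 44.4 and 11.9 to 16.96 RPKM) and endothelium sums (132 to 150 and 96.6 to 115 RPKM) were higher in anterior lateral libraries, without overlap. The part of these cells in the lateral and medial Pax3 and Pax9 levels was not tested.

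**Figure D2:**
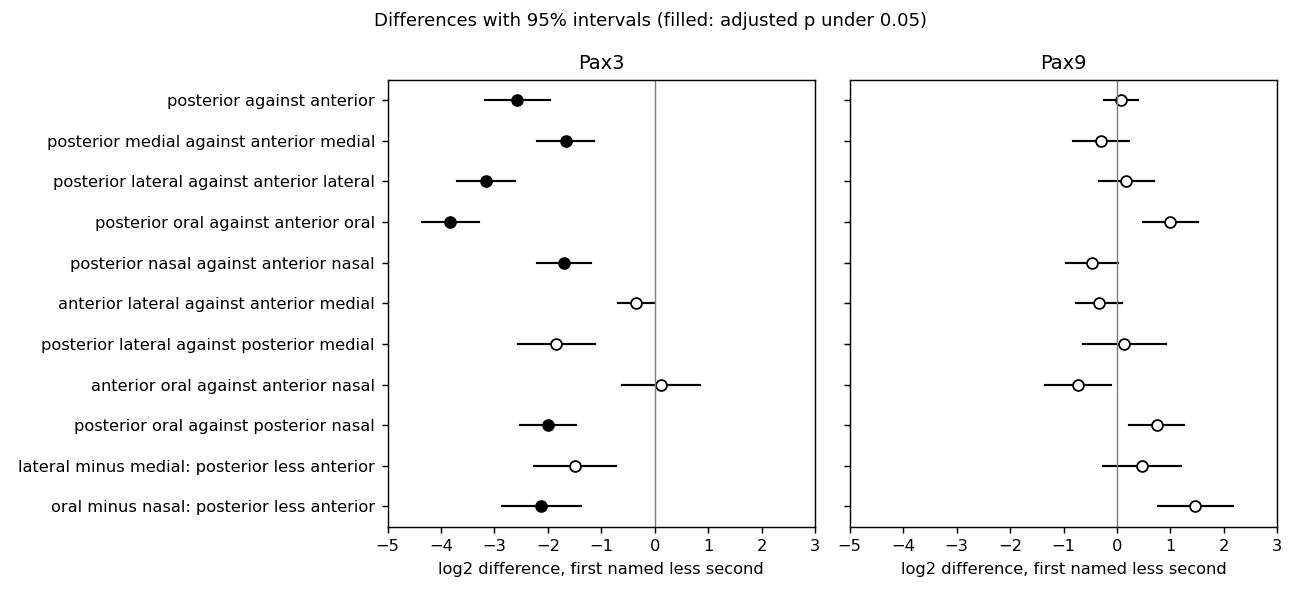
Log2 differences of Pax3 (left) and Pax9 (right) in the 9 pairwise comparisons and the 2 interactions, as the group named first less the group named second, with 95% intervals from limma and filled points where the adjusted p was under 0.05. For Pax3 the 4 AP differences within compartments run from -3.82 in oral to -1.67 in medial palate, and for Pax9 none is filled.

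The level of one gene relative to the other was taken within each library. Pax9 exceeded Pax3 in 24 of 25 libraries, with anterior oral replicate 1 as the exception. In anterior palate Pax9 was on average 1.99-fold Pax3 (log2 ratio of Pax3 to Pax9 of -1.0 ± 0.56, SD, n = 13), and in posterior palate 12.6-fold (-3.65 ± 1.34, n = 12). The log2 ratios differed by -2.66 between the regions in a two-sided permutation test (p = 4.00e-05, with 2.00e-05 the smallest that 100000 resamples give, 0.00036 adjusted over 9 such comparisons). The ranges overlapped only at the edge, since anterior nasal replicate 2 (-2.09) was below posterior medial replicate 2 (-1.77). By compartment the posterior fold of Pax9 over Pax3 was 40.3 in oral, 20.2 in lateral, 6.03 in nasal and 5.11 in medial palate, against 1.42 to 2.57 in the anterior compartments. Within compartments 3 against 3 libraries cannot go below p = 0.1 in an exact permutation test, which was the value for the medial, lateral and oral comparison, and for nasal palate the exact p was 0.0571.

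**Figure D3:**
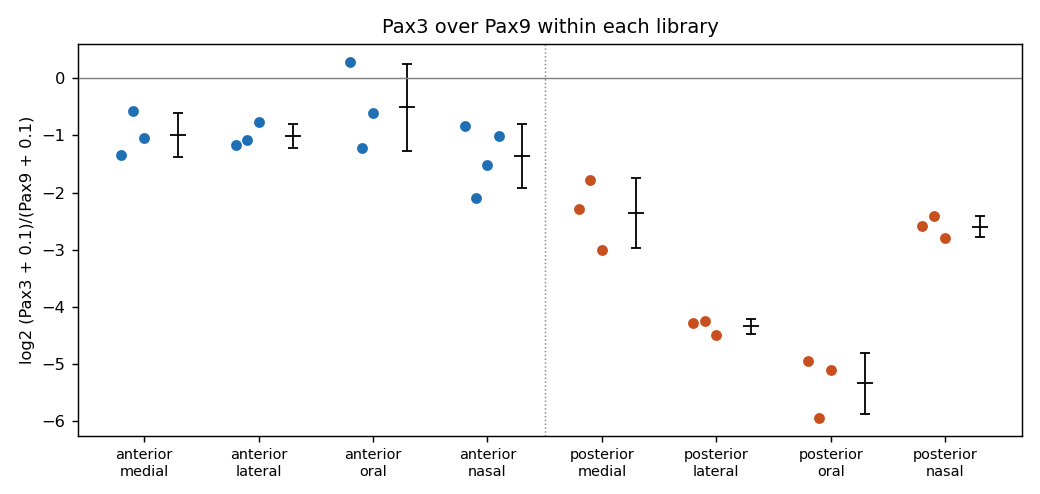
Log2 ratio of Pax3 to Pax9 within each library, by compartment, with the mean and SD of each compartment beside the points and a line at equal levels. Anterior means lie between -1.36 and -0.51, and posterior means between -5.33 in oral and -2.35 in medial palate.

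Over the 8 compartment means, log2 Pax3 and log2 Pax9 had an r of -0.38, with 0.34 over the 4 anterior and -0.84 over the 4 posterior means. These values describe few points, in which oral and nasal samples divide the same tissue as medial and lateral ones, and no test was made.

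The other genes of the Pax3 and Pax9 pathways were looked up in the AP comparison, in which the median log2 difference of all tested genes was 0.03 and 1.66% of genes were called in each direction. Of the 10 upstream and partner genes of Pax3, 7 reached the expression minimum, 2 were lower and 1 was higher in posterior palate. Eya1, a transcriptional coactivator, fell 5.30-fold, from 49.2 ± 10.4 RPKM in anterior to 10.7 ± 6.15 RPKM in posterior palate without overlap (adjusted p = 6.39e-07). Tfap2a, a transcription factor of neural crest, fell 3.50-fold, from 11.8 ± 5.08 to 3.46 ± 2.19 RPKM with overlap (adjusted p = 4.59e-05). The second Eya gene that was called went the other way: Eya4 rose 3.03-fold, from 10.1 ± 4.87 to 28.4 ± 8.28 RPKM without overlap (adjusted p = 0.000128).

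By compartment, Eya1 was lower in posterior palate in all 4, with log2 differences of -3.12 in medial, -2.46 in oral, -2.15 in lateral and -1.78 in nasal palate, each called. Its steepest compartment was thus medial and not oral, the steepest of Pax3. In posterior palate Eya1 was at 4.93 RPKM in medial and 11.7 RPKM in lateral libraries on average, while Pax3 was at 16.3 and 4.42 RPKM.

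Of the 11 Pax3 target genes only Hes1 and Sostdc1 reached the minimum, and neither was called. Sostdc1, a secreted inhibitor of BMP and Wnt signals and the highest of the list, was at 24 ± 16.7 RPKM in anterior and 29.9 ± 14.4 RPKM in posterior palate. Lbx1 and Myf5, targets of Pax3 in muscle precursors, averaged 0.0096 and 0.068 RPKM, and the pigment cell targets Mitf and Tyrp1 averaged 1.97 and 0.085 RPKM. Among markers of the cell types in which Pax3 is best known, the 10 skeletal muscle markers summed to 2.36 to 56.0 RPKM in anterior and 1.26 to 110 RPKM in posterior libraries, and none was tested. The 8 Schwann cell and glia markers summed to 11.1 to 71.4 RPKM in anterior and 12.5 to 48.1 RPKM in posterior palate, and the 6 melanoblast markers to 12.7 to 34.4 and 10.1 to 27.9 RPKM, most of it Tyr. Among the melanoblast markers Tyr averaged 19.7 RPKM, Kit 3.51 RPKM and Pmel 0.537 RPKM, and Dct, Tyrp1 and Mlana each under 0.2 RPKM. The 1 tested marker of the glia list and that of the melanoblast list were not called. Among the other cell types, 1 of 2 tested cartilage markers (Col2a1) was higher in posterior palate, and none of 3 epithelium, 5 osteoblast, 5 endothelium, 1 neuron, 3 blood and 2 macrophage markers tested was called. Markers under the expression minimum, which were not tested, also differed in level. The neuron genes Nefl (1.48 ± 0.833 RPKM in anterior, 9.74 ± 6.82 in posterior palate) and Nefm (0.672 ± 0.880 and 7.22 ± 4.88) were higher in posterior palate by mean. The neuron genes Snap25 (means of 5.75 and 2.50 RPKM) and Stmn2 (3.56 and 1.21 RPKM) were lower there. The neuron sums overlapped, at 6.89 to 34.7 RPKM in anterior and 12.8 to 53.7 RPKM in posterior libraries. The epithelium gene Krt8 was lower in posterior palate by mean (8.80 ± 6.58 and 1.58 ± 1.52 RPKM). The part of such cells in the AP difference of Pax3 was not tested.

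Of the 11 genes of the Pax9 palate network, 5 were tested, 2 were lower in posterior palate and none was higher, with a median of -0.23. Msx1, a homeodomain partner of Pax9, was at 8.74 ± 5.54 RPKM in anterior and 0.313 ± 0.368 RPKM in posterior palate (log2 difference -4.45, adjusted p = 8.90e-05). Dkk2, a secreted Wnt inhibitor, fell 2.68-fold, from 41.6 ± 16.3 to 16.0 ± 9.29 RPKM (adjusted p = 0.000858). Dkk2 was not called with compartment and sequencing run in the fit (log2 difference -0.72, adjusted p = 0.315), and Msx1 not with a mean-variance trend (adjusted p = 0.137). The size for Msx1 ran from -5.95 to -2.61 with the amount added before the logarithm. Osr2, a zinc finger factor and the highest of the list, was at 59.1 ± 24.5 RPKM in anterior and 59.7 ± 41.9 RPKM in posterior palate (adjusted p = 0.799), and Bmp4 and Axin2 were not called either. In the posterior oral and nasal comparison Pax9 was higher in oral libraries without passing the test. Fgf10 of this list was higher and Dkk1 lower in oral palate there, where 0.586% of 10586 genes were called higher and 0.661% lower. Fgf10 averaged 4.54 ± 3.51 RPKM over all posterior libraries. A gene under 5 RPKM in all libraries of one compartment was tested in that comparison only through the other.

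Of 9 Pax cofactors, 8 were in the table and all 8 were tested, with a median of 0.09. The Groucho-type corepressors Tle1 and Tle2 were higher in posterior palate, by 1.28-fold (10.2 ± 1.32 to 13.2 ± 2.27 RPKM, adjusted p = 0.0377) and 1.56-fold (15.6 ± 4.58 to 24 ± 6.10 RPKM, adjusted p = 0.0350). Both calls were marginal, since Tle1 kept its call in 13 and Tle2 in 14 of the 25 fits that left out 1 library. The highest cofactor, Kdm5b, a histone demethylase, was at 33.8 ± 4.77 RPKM in anterior and 36.7 ± 4.79 RPKM in posterior palate (adjusted p = 0.576).

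The landmark genes of each region are transcription factors with an AP difference in the palate, and they are given as a scale for Pax3. The paper cites earlier work for Shox2, Msx1, Barx1, Meox2 and Tbx22. It lists Alx1, like Pax3, among further genes from these same data, so Alx1 is no independent landmark. Shox2 (12.6-fold), Msx1 (21.9-fold) and Alx1 (54.7-fold) were lower in posterior palate, and Meox2 (11.9-fold), Tbx22 (7.70-fold) and Barx1 (26.4-fold) were higher. Some of these folds depend on the 0.1 RPKM added before the logarithm, because Msx1, Alx1 and Barx1 were listed at 0 in 7, 1 and 1 libraries. The 5.96-fold difference of Pax3 was smaller than each of the 6, and Pax3 kept a mean of 8.73 RPKM in posterior palate where Alx1 was at 1.78 and Msx1 at 0.313 RPKM.

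**Figure D4:**
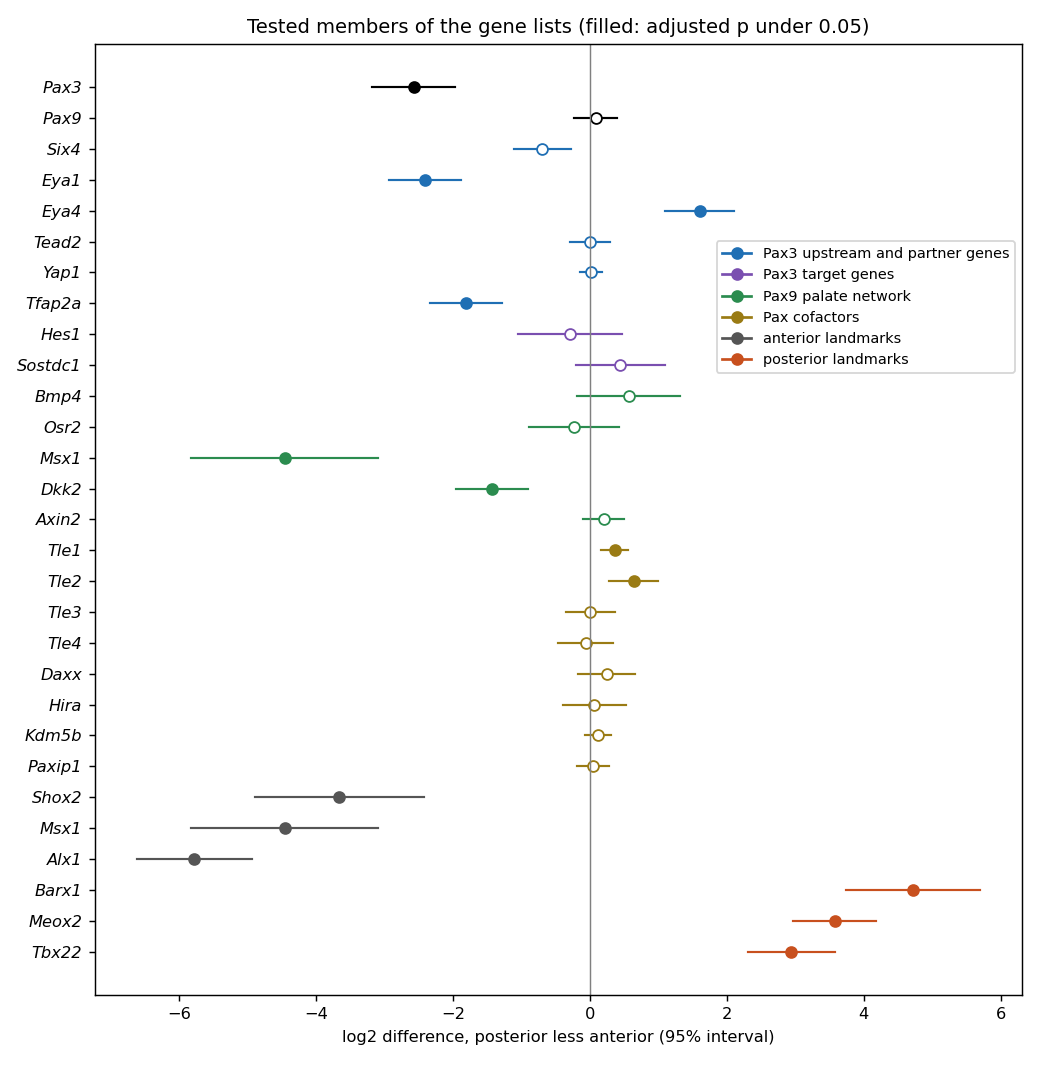
Posterior less anterior log2 difference with its 95% interval for Pax3, Pax9 and the tested members of the 4 pathway lists and the 2 landmark lists, 1 member left out, coloured by list and filled where the adjusted p was under 0.05. Pax3 (-2.57) and Eya1 (-2.41) lie close together, Eya4 (1.60) lies on the other side, and Pax9 lies at 0.083.

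The genes whose level was most like that of Pax3 over the 25 libraries, by Pearson r on the log2 scale among 11912 other genes, were Foxl2os (0.90), Hpse2 (0.81), 9130206I24Rik (0.81), Ambn (0.81) and Alx1 (0.80). All 5 were low in posterior palate, but their choice by r to Pax3 over the same libraries favours this. Hpse2, a heparanase-like protein, was at 17.6 ± 6.60 RPKM in anterior and 0.195 ± 0.121 RPKM in posterior libraries. Ambn, an enamel matrix protein, was at 9.27 ± 6.05 and 0.193 ± 0.267 RPKM. Within posterior palate Foxl2os averaged 3.70 RPKM in nasal, 1.94 in medial, 1.17 in lateral and 0.358 in oral palate, lowest in oral palate as Pax3 was, but highest in nasal and not in medial palate. It is an antisense neighbour of Foxl2, and without strand the reads of both cannot be told apart. Over the 8 compartment means, genes among the closest were Zfp326 (0.98), Lsm6 (0.96), Inhba (0.96) and 2310030G06Rik (0.96). Inhba, which encodes an activin subunit, was at 48.0 ± 21.7 RPKM in anterior and 20.6 ± 9.71 RPKM in posterior libraries.

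For Pax9 the closest genes over the 25 libraries were Mcc (0.84), Lass2 (0.76), Reps1 (0.76), Gchfr (0.75) and Pcdh18 (0.74), and over the 8 means Tox4 (0.90), Arl16 (0.90), Cotl1 (0.90), Cish (0.89) and Gm19361 (0.89). Pcdh18, a cell adhesion protein of the protocadherin family, was close to Pax9 in level as well, at 81.3 ± 18.0 RPKM in anterior and 85.2 ± 13.7 RPKM in posterior libraries. Libraries share runs and differ in depth, and the 8 means rest on the same libraries, so these correlations describe the profiles and were not tested.

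**Figure D5:**
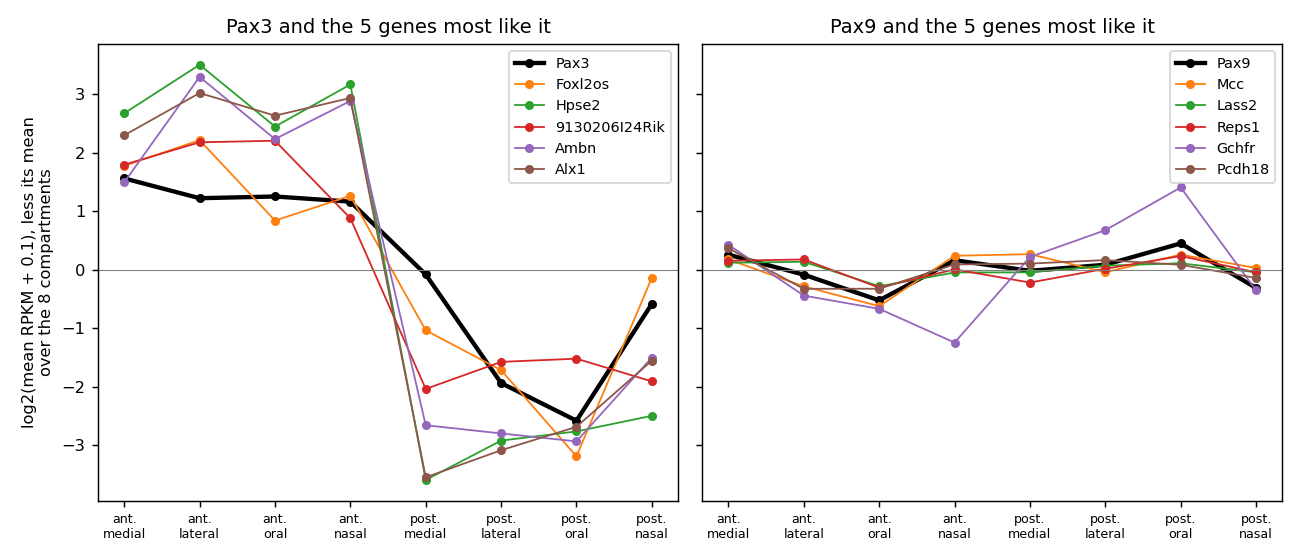
Mean level in each of the 8 compartments, as log2(mean RPKM + 0.1) less its mean over the compartments, for Pax3 (left, black) and Pax9 (right, black) with the 5 genes of highest r over the 25 libraries. The Pax3 group, chosen for its likeness to Pax3, steps down from anterior to posterior palate. Within posterior palate Foxl2os is highest in nasal and lowest in oral palate. The Pax9 group stays near 0 except for Gchfr.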

How the data were processed

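The authors deposited 1 table of RPKM values for 37406 genes and 25 libraries. RNA of LCM samples was amplified (Ovation RNA-Seq System V2), tagmented (Nextera) and read single end, at 50 bases. The study's methods give GeneSpring, with duplicate and multiply aligned reads removed, and the submitters' processing notes name TopHat and mm9. Duplicate removal after amplification lowers high values more than low ones. In mm9 Pax3 (gene ID 18505) lies on chromosome 1 from 78097842 to 78193711 and Pax9 (18511) on chromosome 12 from 57796626 to 57812217.

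Here log2(RPKM + 0.1) was fitted with limma 3.58.1 in R 4.3.3, with two-sided moderated tests and Benjamini-Hochberg adjustment over all genes tested, called at an adjusted p under 0.05. Genes entered the AP comparison where 6 or more libraries reached 10 RPKM, and a pair of compartments where 3 or more of its libraries reached 5 RPKM. AP differences within compartments and interactions came from 1 fit of 8 compartment means on all 25 libraries (5 RPKM in 3 or more). The script was tested on simulated data. Library sizes were read from the step between low values; 274 of 276 ratios of 2 libraries came out the same through another library, and 62 of 155 genes gave the chosen totals within 0.2%, so read numbers are approximate. Sequences came from GENCODE M21 (GRCm38), whose coordinates are not those of mm9; no value was converted between them.

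Sequencing runs were taken from alignment names in the headers of the study's supplementary tables. Replicate numbers were not taken to pair samples in the main fits. In the anterior oral and nasal comparison deviations of same-numbered libraries correlated at 0.116 to 0.242, inside the range of other numbers (-0.313 to 0.402). Groups came from the labels. Members, gene lists and tests were chosen with earlier results of these data known. Named genes were both members, the other Pax genes, the landmarks, each pathway list's called genes and its highest gene, and the 5 genes most like each member over libraries and over compartment means; 2 genes under this rule are not reported here. Further genes given as examples of a list were chosen after their values were seen.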

Additional observations from a re-analysis of the deposited data

Results flagged for a closer look

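The effect of the oral against the nasal compartment was compared between anterior and posterior palate. For Pax3 the interaction was -2.12 on the log2 scale (SE 0.35, adjusted p = 0.0304 by limma): posterior oral libraries were below posterior nasal ones in 3 of 3, while anterior oral and nasal libraries overlapped. The call was lost in 4 other settings and in 8 of 13 fits without 1 library. For Pax9 the interaction was 1.47 (SE 0.34) and did not pass the test across all genes (adjusted p = 0.164). All 3 anterior oral libraries were below all 4 anterior nasal ones, and all 3 posterior oral libraries were above all 3 posterior nasal ones, which in either direction held for 3.67% of genes in anterior and 11.8% in posterior palate. Only anterior nasal palate had enough libraries (4) to check for one that stands apart, and none did for Pax3, Pax9 or their ratio.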

How the results depend on the processing

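Depth limits Pax3 most in posterior oral and lateral palate, where 24 to 92 reads stand behind a value, and 3 libraries a compartment limit every comparison within a region. Pax3 stayed lower in posterior palate under all 12 other settings (log2 difference -2.91 to -2.39, with -2.91 in the run of 3 posterior and 1 anterior libraries) and without any 1 library (-2.71 to -2.43), and kept its call wherever it was tested. Pax9 was not called in that comparison under any setting, and its sign changed with compartment and run in the fit (-0.060) and in 1 run (-0.14).

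Pax3 gained a call for posterior lateral against medial palate in one fit of all libraries (-1.84, adjusted p = 0.00107), but not with the run added to that fit (-1.35). It lost its call for posterior oral against nasal palate without the filter on low values (-2.0), for posterior against anterior medial palate with those libraries alone (-1.67) and for nasal palate with the run added (-1.74). Its oral and nasal interaction lost its call with median centring (-2.10), no filter (-2.12), the compared libraries alone (-2.12) or the run added (-2.22), and ranged from -2.26 to -1.90 without 1 library. Anterior lateral against medial Pax3 turned to 0.11 with the run in the fit. Anterior oral against nasal Pax3 was -0.18, 0.57 and -0.15 within 3 runs and -0.10 to 0.26 without 1 library, negative without anterior nasal replicate 2 (-0.10) or anterior oral replicate 1 (-0.04), and the run with 0.57 gave -1.18 for Pax9. Within a run, posterior against anterior was 0.68 for Pax9 in oral and -2.03 for Pax3 in nasal palate. Without 1 library, Pax9 ranged from 0.76 to 1.21 in posterior against anterior oral palate and from -0.12 (without posterior medial replicate 2) to 0.28 in posterior lateral against medial palate. The log2 ratio of Pax3 to Pax9 differed by -1.36 in medial, -3.33 in lateral, -4.82 in oral and -1.23 in nasal palate.

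Genes called between posterior and anterior palate numbered 286, 485 without the filter and 155 with compartment and run added. Of the pathway lists, the Pax3 partners had 3 calls and 5 under median centring or quantile normalization. The Pax9 network had 2, and 1 with a mean-variance trend or with compartment and run. The cofactors had 2, and 1 under centring, trend or compartment and run and 0 without the filter. Kdm5b was -0.018 with compartment and run. Counts in the other comparisons ranged over settings from 0 to 318 (262 as reported) for anterior lateral against medial, 0 to 6 (0) for anterior oral against nasal, 0 to 25 (0) for posterior lateral against medial and 11 to 143 (132) for posterior oral against nasal palate. For posterior against anterior they ranged from 11 to 207 (198) in medial, 15 to 177 (103) in lateral, 13 to 73 (61) in oral and 34 to 317 (227) in nasal palate, and from 0 to 19 (11) and 0 to 12 (9) for the interactions. Without any 1 library, the 132 calls of posterior oral against nasal palate fell to between 12 and 57, and the 262 of anterior lateral against medial to between 55 and 195. Between posterior and anterior, they ranged from 99 to 1007 in medial (1007 without posterior medial replicate 3), 84 to 179 in nasal, 54 to 98 in lateral and 35 to 51 in oral palate, and for the interactions from 0 to 36 and 1 to 7. Where a setting changed a result, the cause was not tested.

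With the replicate number as a block, Pax3 differed by -2.57 between posterior and anterior palate and no call of Pax3 or Pax9 changed, interactions included (-2.21 for Pax3, oral and nasal), while Tle1 lost its call (0.36). In the comparisons other than anterior oral against nasal, same-numbered libraries correlated at -0.396 to 0.327. The numbers were not taken as pairs in the main fit of any comparison.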
